A study of Mus musculus with 4 samples.

Results

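Utf1, Lin28a and Tdh are genes that undifferentiated mouse embryonic stem cells express at high levels. They were taken by symbol from the authors' deposited table, which lists 1593 genes, and all 3 were found. They had been proposed with their levels and their change in this table known, so both are given as a description, without a test. The RNA came from the mouse embryonic stem cell line 46C, which carries a green fluorescent reporter at the neural gene Sox1. The PC group (2 libraries) received 1 µM PD0325901 together with CID755673 for 24 h in serum medium, and the PD group (2 libraries) received 1 µM PD0325901 and no CID755673. PD0325901 blocks MEK, the kinase that activates ERK, and CID755673 blocks protein kinase D at a dose not given in the sources used here. Both groups carry the MEK inhibitor, so the comparison asks what CID755673 changes in MEK-inhibited cells of a single line.

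The 3 genes act at different layers of the stem cell state. UTF1 is a chromatin-bound protein that sits at developmental genes bearing both active and repressive histone marks. LIN28A is an RNA-binding protein that blocks the maturation of let-7 microRNAs and binds many messenger RNAs. TDH is the mitochondrial enzyme that opens the breakdown of threonine to glycine and acetyl-CoA, on which mouse embryonic stem cells depend for growth.

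The deposited library columns hold log2 values of normalized reads plus 1. Undoing the log gave whole reads per gene in every library. Reads on the listed genes were 601713 and 433684 in PC replicates 1 and 2, and 632042 and 683777 in PD replicates 1 and 2. These sums cover a selection of genes, and the full depth is unknown. The table keeps genes with an absolute log2 change of at least 1 and a p of at most 0.0498 in the authors' deposited table. It is a selection from 31432 genes tested. In PC, 613 of the listed genes had higher values and 980 lower ones. The test, limma with Benjamini-Hochberg adjustment at a threshold of 0.05, called 495 of them, or 31.1%. Of 10 fixed markers of pluripotent stem cells, the listed ones were these 3 genes, whose presence in the table was already known. Pou5f1, Sox2, Nanog and the other markers are not analysed here, so the cell type cannot be checked. All values come from bulk RNA, where fewer cells of a type and less RNA per cell cannot be told apart.

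Transcripts of all 3 genes were lower in cells given CID755673. Utf1 was at 26.1% of its PD mean in PC, Tdh at 44.0% and Lin28a at 46.1%. In each gene both PC libraries lay under both PD libraries, which 61.5% of the listed genes also showed. The limma test placed 3 of 3 among the genes called lower, which made up 19.8% of the listed genes. They did not stay called with a library left out, nor did most called genes. Since the genes were chosen on this comparison, nothing is read from these counts. All levels rest on the deposited size factors. With size factors taken from the listed genes alone, which had been selected for change, the log2 change was -0.93 for Utf1, -0.11 for Lin28a and -0.18 for Tdh, against -1.94, -1.12 and -1.19 with the deposited ones.

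**Figure D1:**
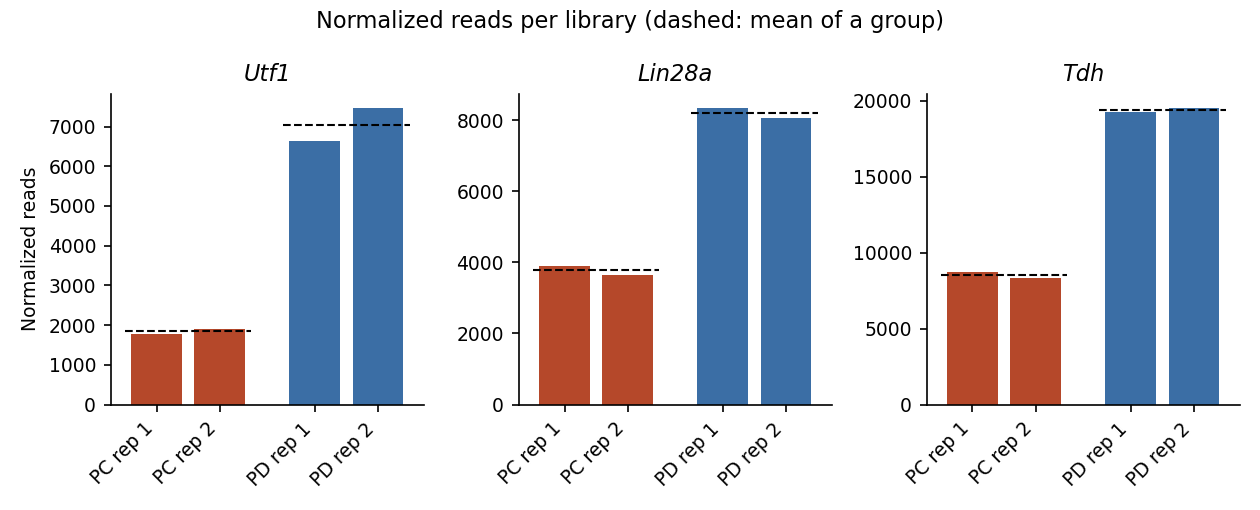
Normalized reads (y axis, from 0) of Utf1, Lin28a and Tdh in each library, with PC in red and PD in blue; dashed lines are the means of the 2 libraries of a group. Both PC bars of every gene are lower than both PD bars, and Utf1 is at 26.1% of its PD mean in PC.

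Utf1 (ENSMUSG00000047751) had 2157 and 1592 reads in PC replicates 1 and 2, against 6852 and 8140 reads in PD replicates 1 and 2. After normalization these were 1787.0 and 1893.8 in PC, and 6644.3 and 7460.2 in PD. The groups did not overlap, and the lowest PD library was 3.51 times the highest PC library. The means were 1840.4 ± 75.5 normalized reads in PC and 7052.3 ± 576.9 in PD (SD, n = 2 each). The log2 change, PC minus PD, was -1.94 (SE 0.10).

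By their ratio the replicate libraries of Utf1 differed more in PD than in PC, though the counting intervals of the groups overlapped. The ratio of PC replicate 1 to PC replicate 2 was 0.944, with an exact 95% counting interval of 0.884 to 1.007. In PD the same ratio was 0.891, with an interval of 0.862 to 0.92, so the PD libraries differed by more than the counting of reads allows. Across the 4 pairs of a PC and a PD library the log2 difference ran from -2.06 to -1.81. Such intervals cover counting error only.

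Lin28a (ENSMUSG00000050966) had 4710 and 3076 reads in PC replicates 1 and 2, against 8598 and 8811 reads in PD replicates 1 and 2. Normalized, it stood at 3902.1 and 3659.2 in PC, and at 8337.4 and 8075.2 in PD. The groups did not overlap, and the lowest PD library was 2.07 times the highest PC library. The means were 3780.7 ± 171.8 normalized reads in PC and 8206.3 ± 185.4 in PD (SD, n = 2 each), a log2 change of -1.12 (SE 0.08). That size is close to the log2 limit of 1 at which the table was drawn. The ratio of replicate 1 to replicate 2 was 1.066 in PC (exact 95% counting interval 1.019 to 1.116) and 1.032 in PD (1.002 to 1.064). Neither interval holds 1, so the replicates of both groups differed slightly beyond counting error.

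LIN28A recognises let-7 precursors partly through the letters GGAG beside the loop, which its zinc knuckles bind, and the tailed precursor is then degraded. The precursors are shown because they are the best known substrates of the protein whose transcript was lower; let-7 levels are not analysed here. RefSeq (GRCm38.p6) held 11 mouse let-7 hairpins, and 9 of them carry GGAG between the mature 5p strand and the 3p strand. A mature let-7 and 4 hairpins follow, written 5′ to 3′. Capitals mark the seed (bases 2 to 8) in the mature strand and GGAG in the hairpins, and the last hairpin has no GGAG in that stretch. All 11 hairpins share the seed shown.
mmu-let-7a-5p: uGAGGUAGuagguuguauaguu
Mirlet7a-1 (chr13:48538179-48538272, minus strand): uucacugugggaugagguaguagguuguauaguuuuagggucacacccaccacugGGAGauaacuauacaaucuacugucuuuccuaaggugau
Mirlet7g (chr9:106178840-106178927, plus strand): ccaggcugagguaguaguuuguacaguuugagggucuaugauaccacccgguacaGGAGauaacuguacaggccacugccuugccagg
Mirlet7i (chr10:122985640-122985724, minus strand): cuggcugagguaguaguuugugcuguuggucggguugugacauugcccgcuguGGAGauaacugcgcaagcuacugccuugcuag
Mirlet7b (chr15:85707319-85707403, plus strand): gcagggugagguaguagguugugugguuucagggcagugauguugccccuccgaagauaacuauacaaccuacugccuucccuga

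Tdh (ENSMUSG00000021953) was the most abundant of the 3. It had 10516 and 7004 reads in PC replicates 1 and 2, against 19851 and 21295 reads in PD replicates 1 and 2. Normalized, it stood at 8712.3 and 8332.0 in PC, and at 19249.3 and 19516.6 in PD. The groups did not overlap, and the lowest PD library was 2.21 times the highest PC library. The means were 8522.1 ± 268.9 normalized reads in PC and 19382.9 ± 189.0 in PD (SD, n = 2 each), a log2 change of -1.19 (SE 0.08). The ratio of replicate 1 to replicate 2 was 1.046 in PC (exact 95% counting interval 1.014 to 1.078) and 0.986 in PD (0.967 to 1.006). The standard errors come from limma's fit over the listed genes, whose spread is that of genes selected on these samples.

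Parts of the Tdh transcript occur in other annotated genes. In GENCODE M21, 59.8% of the main Tdh transcript matched the transcribed processed pseudogene Gm13929 on chromosome 2, at 97.1% identity over 1125 bases. A further 66 exonic bases, 2.52% of the gene, overlap the antisense gene Gm17232 on the other strand. Gm13929 and Gm17232 were themselves in the table and both had lower values in PC. A shorter match, 289 bases at 89.3% identity, was to the processed pseudogene Gm42760 on chromosome 5, which was not listed and is not analysed here. The sources used here do not say whether the counting used strand or how reads with several matching places were treated.

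Gm13929 had 49.7 and 48.8 normalized reads in PC replicates 1 and 2, against 112.5 and 121.0 in PD replicates 1 and 2. Its log2 change was -1.23 (SE 0.21), with an adjusted p of 0.089 by limma that missed the threshold. PC was at 42.2% of the PD mean for Gm13929, beside 44.0% for Tdh. Reads of the pseudogene amounted to 0.571% and 0.585% of the Tdh reads in PC replicates 1 and 2, and to 0.584% and 0.62% in PD replicates 1 and 2.

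Gm17232 had 35.6 and 41.6 normalized reads in PC replicates 1 and 2, against 121.2 and 106.3 in PD replicates 1 and 2. Its log2 change was -1.54 (SE 0.24), and its adjusted p of 0.067 by limma also missed the threshold. PC was at 34.0% of the PD mean. Its reads were between 0.409% and 0.63% of those of Tdh in each library. Reads of Tdh counted to these genes, and their own transcription, cannot be told apart. Both were named after their values were seen.

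**Figure D2:**
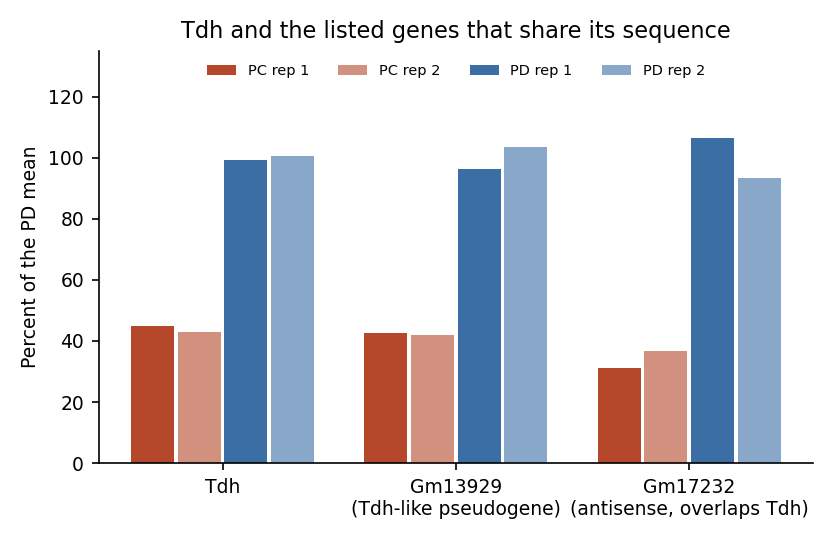
Normalized reads of Tdh, its near-copy Gm13929 and the overlapping antisense gene Gm17232 in each library, as percent of the PD mean of the same gene (y axis, from 0); red is PC and blue is PD, the paler shade being replicate 2. All 3 genes are lower in PC, at 44.0%, 42.2% and 34.0% of their PD means.

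Utf1 and Lin28a had no such copy among the annotated transcripts. Exons of Lin28a share 234 bases, 5.86% of the gene, with Gm13061 on the other strand, which was not listed. No exon of another gene overlaps Utf1. The genes lie on chromosomes 7 (Utf1), 4 (Lin28a) and 14 (Tdh), with 2, 4 and 9 exons in the main transcript.

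By normalized reads the order was Tdh, Lin28a and Utf1 in both groups, and no library of one gene overlapped with that of its neighbour within a group. Per kilobase of exonic sequence Utf1, the shortest gene, moved ahead of Lin28a. In PC the levels were 3259.0 ± 102.9 normalized reads per kilobase for Tdh, 1499.9 ± 61.5 for Utf1 and 946.1 ± 43.0 for Lin28a (SD, n = 2). In PD they were 7412.2 ± 72.3 for Tdh, 5747.6 ± 470.2 for Utf1 and 2053.6 ± 46.4 for Lin28a. Lengths were 2.62, 1.23 and 4.0 kilobases in the same order.

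Of these 3 genes, Utf1 differed most between the groups in its rank among the 1593 listed genes. By normalized reads it ranked 61 in both PC libraries, and 15 and 13 in PD replicates 1 and 2. Lin28a ranked 22 and 24 in the PC libraries and 12 in both PD libraries. Tdh ranked 6 and 7 in PC and 2 in both PD libraries. In the mean of all 4 libraries Tdh was the listed gene with rank 2, behind the phosphatase gene Dusp9, which was higher in PC.

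The table's selection sets much of this background. Among the 25 listed genes with the highest means, 17 were lower in PC. Of 120 listed genes with a mean of at least 1000 normalized reads, 71 were lower in PC, or 59.2%, beside 61.5% of all listed genes. Their median log2 change was -1.09, and that of all listed genes was -1.17. In that abundant class 4 genes had a lower log2 change than Utf1, 44 a lower one than Tdh and 53 a lower one than Lin28a. Over all 980 lower listed genes these numbers were 279 for Utf1, 782 for Tdh and 860 for Lin28a. The Utf1 change thus lay near the low end of the abundant listed genes, while those of Lin28a and Tdh were among the smaller ones that the table's fold limit admits.

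**Figure D3:**
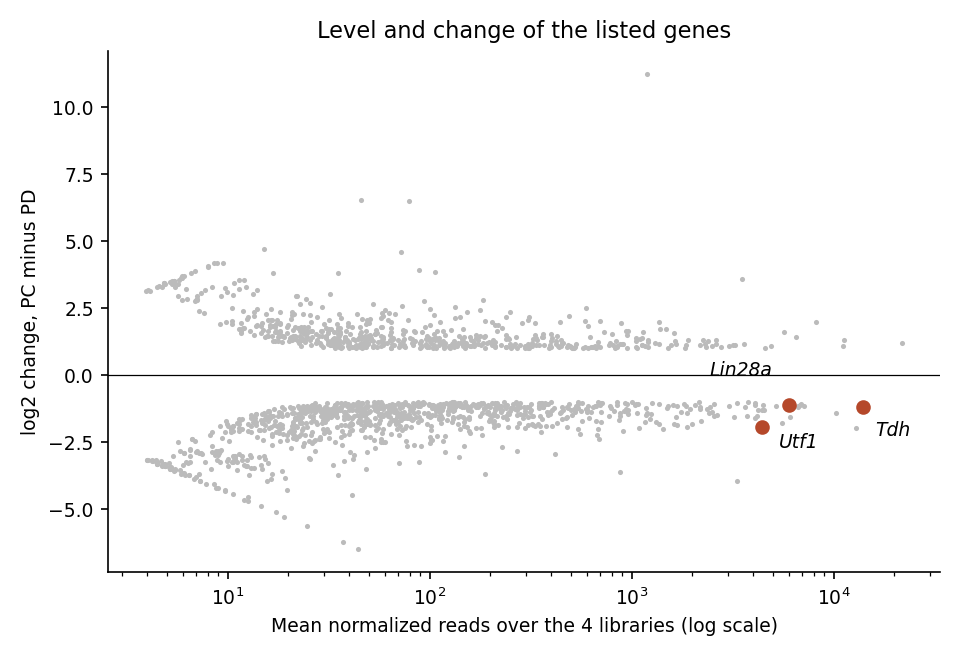
Each point is a listed gene, with its mean normalized reads over the 4 libraries on the x axis (log scale) and its log2 change, PC minus PD, on the y axis; red points are Utf1, Lin28a and Tdh. The empty band around 0 is the fold limit of the table, and Lin28a and Tdh lie at its lower edge while Utf1, at -1.94, lies further down.

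Ratios between the genes within a library do not use the size factors. For every 100 Lin28a reads there were 45.8 and 51.8 Utf1 reads in PC replicates 1 and 2, against 79.7 and 92.4 in PD replicates 1 and 2. For every 100 Tdh reads there were 20.5 and 22.7 Utf1 reads in PC, against 34.5 and 38.2 in PD. Both ratios were lower in both PC libraries than in either PD library, and their exact 95% counting intervals did not meet across the groups. For Utf1 over Lin28a the intervals of the replicates did not meet within PC or within PD either. For Utf1 over Tdh those of the PD replicates also did not meet. The intervals cover counting error only, so nothing is read from their not meeting across the groups. By the ratios themselves, Utf1 was lower in PC relative to both of the other genes. The log2 change of Utf1 was 0.82 below that of Lin28a and 0.75 below that of Tdh.

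Lin28a and Tdh kept nearly the same ratio in all libraries. There were 44.8 and 43.9 Lin28a reads per 100 Tdh reads in PC replicates 1 and 2, against 43.3 and 41.4 in PD replicates 1 and 2. The interval of PC replicate 2 (42.1 to 45.8) overlapped with that of PD replicate 1 (42.2 to 44.4), while the interval of PC replicate 1 (43.3 to 46.4) and that of PD replicate 2 (40.4 to 42.4) did not meet. Their log2 changes differed by 0.07, less than the SE of either.

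**Figure D4:**
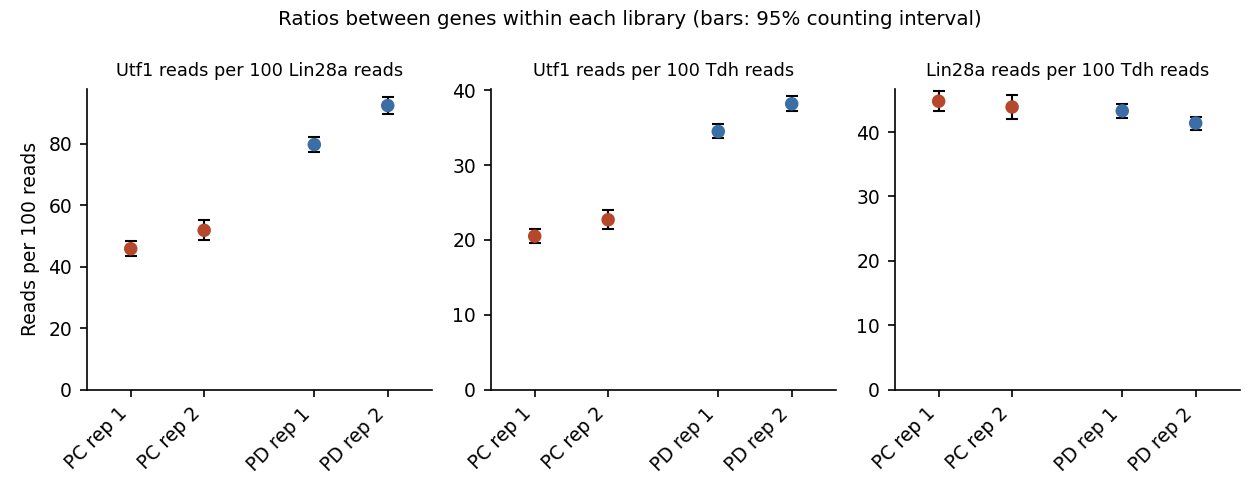
Reads of the first gene per 100 reads of the second within each library (y axis, from 0), for the 3 pairs of genes, with PC in red, PD in blue and bars for the exact 95% counting interval. Utf1 is lower against both other genes in PC, while Lin28a stays between 41.4 and 44.8 reads per 100 Tdh reads.

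Genes with the most similar pattern were sought among the 119 other listed genes with a mean of at least 1000 normalized reads. Likeness was the root mean square difference over the 4 libraries between log2 values centred on each gene's mean. With so few libraries it describes the size of the change and the spread of replicates, and the libraries are shared. Nearest to Utf1 were Trp73, which encodes a relative of the tumour suppressor p53 (0.023), Zfp750, a zinc finger factor of epidermal differentiation (0.068), and AC154266.1 (0.07). Trp73 averaged 781.1 ± 17.4 normalized reads in PC and 2985.2 ± 169.4 in PD (SD, n = 2 each), a log2 change of -1.93. Within a difference of 0.1 there were 5 genes for Utf1, 29 for Lin28a and 30 for Tdh. The log2 changes of Lin28a and Tdh, unlike that of Utf1, lie near the table's fold limit, so nothing is read from these counts.

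Nearest to Lin28a were Prrg4, which encodes a transmembrane Gla protein (0.017), the histone demethylase gene Kdm2a (0.024) and the major vault protein gene Mvp (0.031). Kdm2a averaged 4338.5 ± 186.7 normalized reads in PC and 9337.7 ± 91.3 in PD (SD, n = 2 each). Nearest to Tdh were Ifitm3, an interferon-induced membrane protein gene (0.011), Mvp (0.021) and the kinase gene Plk2 (0.026). Ifitm3 was at 2247.7 and 2174.6 normalized reads in PC replicates 1 and 2, against 5051.1 and 5037.0 in PD replicates 1 and 2. Lin28a and Tdh differed from each other by 0.042, and 4 genes were nearer to Lin28a than Tdh was. Utf1 differed from Lin28a by 0.42 and from Tdh by 0.38.

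**Figure D5:**
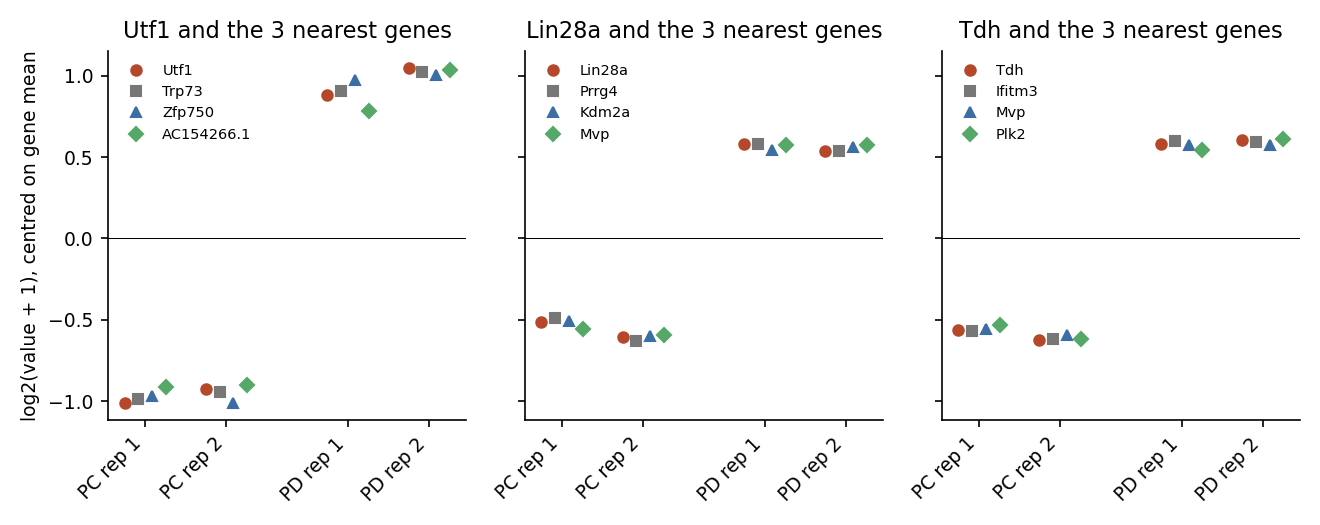
log2(value + 1) in each library, centred on each gene's mean over the 4 libraries (y axis), for Utf1, Lin28a and Tdh (red circles) and the 3 listed genes nearest to each. Within a library the points of a panel lie at nearly the same height (set side by side so that all can be seen), and the groups stand further apart for the Utf1 panel than for the other panels.

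Few other genes of their pathways were listed. The LIN28 and let-7 axis was searched by 32 gene symbols, which include older names of Tut4 and Tut7. Of these 2 were listed, Lin28a and the growth-promoting transcription factor gene Myc. Both were called lower, beside 19.8% of all listed genes, and Lin28a had been chosen on this comparison. Myc, a known let-7 target, averaged 179.7 ± 15.1 normalized reads in PC and 526.1 ± 103.6 in PD (SD, n = 2 each). Its log2 change was -1.53 (SE 0.18), with an adjusted p of 0.028 by limma. It did not stay called with a library left out, nor did most called genes, so nothing is read from that. The partner gene Lin28b, the uridylyltransferase genes Tut4 and Tut7, the exonuclease gene Dis3l2 and the let-7 target Hmga2 were not listed and are not analysed here. A gene outside the table may have changed by less than its fold limit.

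Of 26 genes of threonine, glycine and folate-linked metabolism Tdh was the listed one. Gcat, the ligase that acts after TDH, Gldc of the glycine cleavage system and Shmt2 were not listed. The authors' deposited annotation puts Tdh in a single KEGG pathway, glycine, serine and threonine metabolism. It holds 1 more listed gene, the creatine synthesis gene Gamt. Gamt was at 154.9 and 157.0 normalized reads in PC replicates 1 and 2, against 50.4 and 69.7 in PD replicates 1 and 2. Its log2 change of 1.38 (SE 0.23) missed the threshold, with an adjusted p of 0.088 by limma.

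Of 19 genes for UTF1, bivalent chromatin and Polycomb repressive complex 2, Utf1 was the listed one. Ezh2, Eed and Suz12, the core of that complex, were not listed. Of 38 genes known for abundance in stem cells, 4 were listed, and all 4 were called lower, beside 19.8% of all listed genes. These calls did not hold with a library left out, nor did most others. Of the 4, 3 had been chosen on this comparison, so nothing is read from the count. They were the 3 genes described here and Dnmt3l, a cofactor of DNA methylation, which averaged 2472.0 ± 70.6 normalized reads in PC and 8604.2 ± 343.1 in PD (log2 change -1.80, SE 0.08). The median log2 change of the 4, all lower in PC, was -1.49. The median of -1.17 over all listed genes mixes higher and lower ones, so nothing is read from the difference. The lists were drawn up with earlier results of these data known, so their counts are a description.

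The deposited annotation shows little that the 3 genes share. All 3 carry 10 terms in common, the narrowest of which, by share of annotated listed genes, is intracellular membrane-bounded organelle (51.5%). Utf1 and Lin28a share nucleus, which 29.2% of the annotated listed genes also carry. Their narrowest shared term is positive regulation of biosynthetic process (12.6%). That of Lin28a and Tdh is organic substance catabolic process (14.7%), and that of Utf1 and Tdh nitrogen compound metabolic process (19.0%). The terms pre-miRNA processing and miRNA catabolic process were carried by Lin28a and by no other listed gene, and threonine catabolic process likewise by Tdh.

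Promoters of Utf1 and Lin28a are shown because both genes were lower in PC, by unequal amounts. RefSeq (GRCm38.p6) gave a promoter for 2 of the 3, and none was matched for Tdh. The stretch upstream of the annotated transcript is printed, 5′ to 3′ on the gene's strand. Capitals mark matches, on either strand, to the octamer ATGCAAAT, the SOX core CATTGT, the GC box GGGCGG, the nuclear receptor half-site AGGTCA, the TCF core CTTTGA, the E-box CACGTG and the TATA letters TATAAA.
Utf1 (chr7:139943606-139943788, plus strand): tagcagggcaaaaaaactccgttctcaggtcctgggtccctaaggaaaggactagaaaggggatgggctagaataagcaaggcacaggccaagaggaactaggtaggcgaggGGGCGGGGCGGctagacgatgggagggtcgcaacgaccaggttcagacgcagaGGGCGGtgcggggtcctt
Lin28a (chr4:134018842-134019066, minus strand): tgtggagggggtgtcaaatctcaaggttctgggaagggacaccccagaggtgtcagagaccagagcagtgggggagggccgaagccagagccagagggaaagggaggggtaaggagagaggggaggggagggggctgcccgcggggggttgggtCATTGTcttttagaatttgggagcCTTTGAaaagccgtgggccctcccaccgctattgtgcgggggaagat

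Counted over the whole window of 300 bases, Utf1 held 4 GC boxes, of which 2 overlap by a base, and no other motif searched. The last of them lies past the printed stretch. Lin28a held 1 SOX core, 1 TCF core and, past the printed stretch, 1 GC box on the other strand. Of 32851 RefSeq promoters of that length, 35.7% hold a GC box, 12.6% a SOX core and 16% a TCF core. The octamer (1.74%), half-site (16.3%), E-box (7.15%) and TATA letters (13.6%) were found in neither. Both windows were above the median in G and C, at 62.0% for Utf1 and 63.3% for Lin28a, beside 52.7%. Of the RefSeq promoters, 75.3% held less G and C than Utf1 and 78.4% less than Lin28a. A match is a description of letters and shows no binding.

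Of the 4 listed markers of other cell types Gata6 passed the test, beside 31.1% of all listed genes. Every listed gene differs between the groups by the limits of the table, so nothing is read from the listing of a marker. Of 10 extra-embryonic endoderm markers, Gata6 and Sox17 were listed, with summed values of 466.4 and 511.5 normalized reads in PC, against 221.1 and 209.9 in PD. Most of each sum was Gata6. Sox17 was at 86.2 and 44.0 in PC, against 28.1 and 25.7 in PD, with an adjusted p of 0.74 by limma. Gata6, a driver of that lineage, rose by a log2 change of 1.16 (SE 0.15), with an adjusted p of 0.04 by limma. That call did not hold with a library left out, nor did most others, so nothing is read from its loss. Of 8 trophoblast markers Gata3 was listed, at 194.7 and 133.2 in PC, against 380.1 and 384.0 in PD. Of 7 fibroblast markers Col3a1 was listed, at 38.9 and 48.8 in PC, against 89.2 and 113.6 in PD, and of 6 neural progenitor markers 0 were. The part of such cells in the levels of Utf1, Lin28a and Tdh was not tested.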

How the data were processed

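RNA sequencing of 4 libraries (2 PC, 2 PD) was analysed from 1 table that the authors deposited. Samples were grouped by their titles. Per the file headers it holds log2 values per library and per group, log2 fold changes, p-values and false discovery rates. Bowtie 0.12.2 and mm9 appear, without a role, per the submitters' processing notes. The sources used here do not name the counter, annotation, normalization tool or test. Recovered values were whole reads within 0.001 reads, divided by size factors of 1.207 and 0.8406 (PC replicates 1 and 2) and 1.0313 and 1.0911 (PD). The labels leave it unsaid whether replicates were separate cultures, so each p-value reflects the spread among these libraries alone, possibly technical. Replicates were not copies (chi-square per degree of freedom 6.81 in PC and 7.12 in PD, over genes with at least 10 reads).

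All 1593 listed genes entered a fit of log2(value + 1) with limma 3.58.1 (R 4.3.3), with a trended prior, a minimum mean of 1 normalized read (which removed none), no replicate block, and Benjamini-Hochberg adjustment over the 31432 genes the authors tested. The threshold for a call was an adjusted p of 0.05. Unlisted genes were treated as having larger p-values. The procedure was tested on simulated data. The members and gene lists were chosen with earlier results of these data known. Named genes were the members, the listed genes of 4 pathway lists and the 3 nearest in pattern to each member. Gene lengths, overlaps and transcript matches (blastn 2.17.0, at least 80% identity over 100 bases) came from GENCODE M21 on GRCm38. The submitters' notes name mm9, a different build, without saying what it was used for. Lengths were found for 99.7% of listed genes. Sequences are from RefSeq. Alternatives covered the pseudocount, low values, size factors, voom, the prior, the replicate block and each library left out.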

Additional observations from a re-analysis of the deposited data

How the results depend on the processing

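Utf1, Lin28a and Tdh were lower in PC under all 13 alternatives. With each library left out in turn, the log2 change ran from -2.02 to -1.85 for Utf1, from -1.16 to -1.07 for Lin28a and from -1.22 to -1.15 for Tdh. Without size factors it was -1.19 for Lin28a and -1.26 for Tdh. With size factors taken from the listed genes alone it was -0.93 for Utf1, -0.11 for Lin28a and -0.18 for Tdh. The median log2 change of the listed genes is -0.18 on that scale and -1.17 on the deposited one, because 61.5% of the listed genes are lower and the scale is centred on them. It also turned the split of calls, to 258 higher and 46 lower. Whether the deposited size factors hold for genes outside the table cannot be checked here. The Utf1 change relative to Lin28a and Tdh does not use a scale.

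The 495 calls depended more on the settings. limma called 64 genes without size factors, 304 with size factors from the listed genes, 1 without the trend in the prior, 1176 with the replicate block and 33 to 61 with a library left out. With a PC library left out all remaining calls were higher in PC, and with a PD library left out nearly all were lower. A lone library is then assumed to vary like the other group. Of 5 pathway genes called (Utf1, Lin28a, Tdh, Myc, Dnmt3l), 0 were called without size factors, without the trend or with any library left out, and 1 with size factors from the listed genes. Apart from these constructions the cause was not tested. The labels do not say whether replicate numbers pair the samples. The replicate differences of the groups correlated at -0.002 over 1452 genes. Those genes were selected on these samples, so the value cannot decide whether the samples were paired. All 5 stayed called with the block, under which 1176 of the 1593 listed genes were called, so nothing is read from that count.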
